A study of Sus scrofa with 6 samples.

Results

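The genes described here encode the fast-fibre version of the contractile apparatus and of the calcium pump in the longissimus dorsi (LD), a back muscle, of Laiwu pigs, a fatty breed of North China. The list holds 10 genes, which were looked up among the gene names of the deposited transcript table, and 7 were found by name (MYLPF, MYL1, TNNT3, TNNI2, TNNC2, ACTN3 and ATP2A1). The other 3 (MYH1, MYH2 and MYH4) were not found by name, but their RefSeq positions on Sscrofa11.1 all fell inside a single gene record without a symbol (ENSSSCG00000029441, chromosome 12, 55190429 to 55278539), called the fast myosin locus here. The list was thus measured in 8 gene records of the 31908 in the table, with 48 transcripts, of which 43 were above 0 in at least 1 pig. All 8 records reached the minimum mean of 0.1 FPKM (fragments mapped to a transcript, scaled to its length and to the size of the library) and were among the 12841 protein-coding genes tested.

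RNA of 3 pigs with a very high intramuscular fat (IMF) content (group S-H, pigs LW63, LW70 and LW119) was compared with that of 3 pigs with a very low content (group S-L, pigs LW82, LW88 and LW90). All 6 were castrated males of the same breed from 1 farm, no treatment is named, and their age is not given in the sources used here. Each pig gave 1 library, so n = 3 per group throughout, and the pigs had been picked for the extremes of IMF. A piece of LD muscle also contains fat cells, vessels and connective tissue, and in such bulk RNA fewer muscle fibres and less RNA of a gene per fibre cannot be told apart.

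A muscle fibre contracts when calcium released from the sarcoplasmic reticulum binds troponin C. Troponin C then draws troponin I off actin, and tropomyosin, to which troponin T ties the complex, shifts on the thin filament. This lets myosin heads pull on actin. Fast and slow fibres build this machinery from different genes of the same families. Fast fibres use the myosin heavy chains IIa (MYH2), IIx (MYH1) and IIb (MYH4), in the order of rising contraction speed, the light chains MYL1 and MYLPF, the troponins TNNT3, TNNI2 and TNNC2, the Z-disc protein ACTN3 and the calcium pump SERCA1 (ATP2A1). Slow fibres use MYH7, MYL2, MYL3, TNNT1, TNNI1, TNNC1 and SERCA2 (ATP2A2) in their place. The alpha-actinin ACTN2 is made in slow and in fast fibres. The LD muscle of pigs is rich in fast fibres, and pigs differ from most large mammals in expressing IIb myosin widely.

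All 8 fast-fibre records had a lower mean log2 level in S-H than in S-L pigs (MYLPF was level, at 0.00, when the libraries were quantile-normalized), with log2 fold changes (S-H minus S-L) between -0.82 and -0.45 for 7 of them and -2.76 for TNNI2. None passed the thresholds of the study, an unadjusted p below 0.01 with a log2 fold change of 1 or more in either direction, in limma on log2(FPKM + 0.1). Of all tested genes, 1.36% passed in either direction, 1.17% passed and were higher in S-H, 0.195% passed and were lower, and 25.9% had a log2 fold change below 0. The median log2 fold change was -0.52 for the 8 records and 0.21 for all tested genes. The second of these moved with the scaling between libraries, to 0.35 in TPM and 0.01 with median-ratio size factors, and the first moved with it, to -0.39 and -0.74. The members ranked the pigs much alike, so they did not give 8 separate readings of the groups. LW90 (S-L) was the highest pig in 8 of 8 records and LW88 (S-L) was among the 2 highest in 6, whereas LW119 (S-H) was the lowest in 5, LW63 (S-H) in 2 and LW82 (S-L) in 1. LW82, although an S-L pig, was among the 2 lowest pigs in 5 of 8 records.

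**Figure D1:**
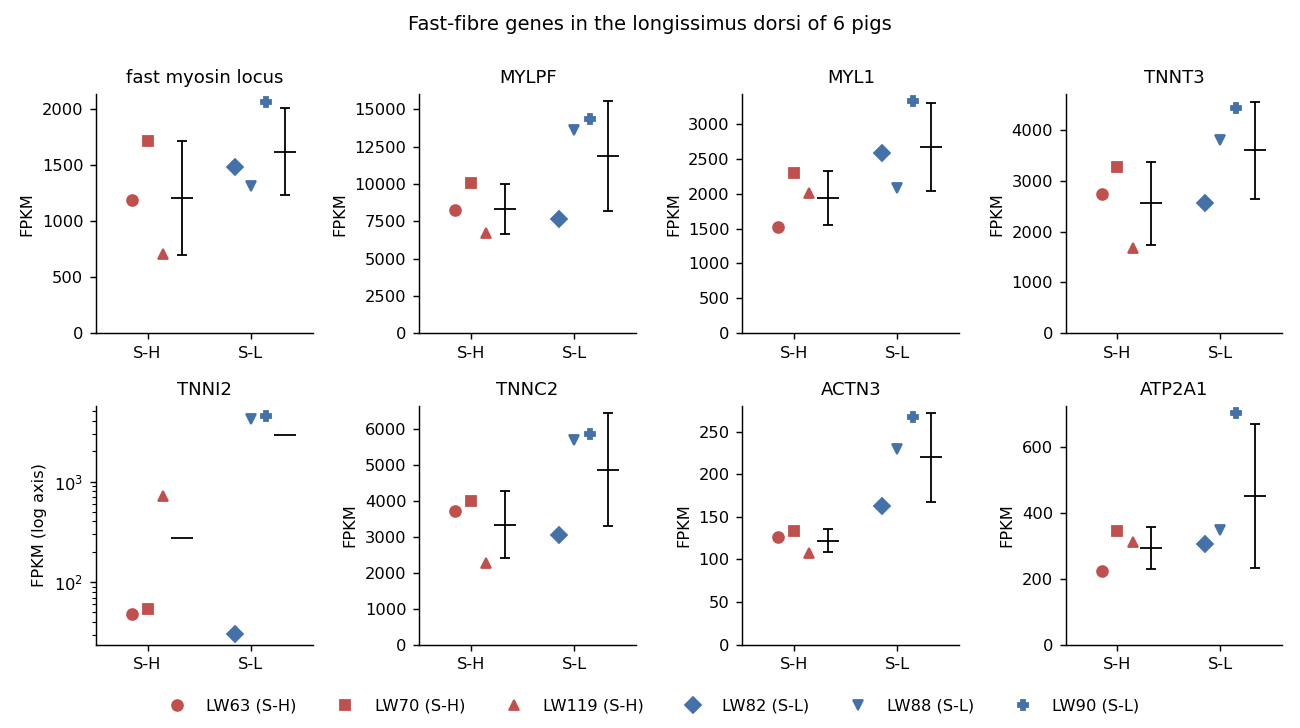
FPKM of the 8 fast-fibre records in each pig (points, S-H red and S-L blue), with the group mean as a horizontal mark and the SD of 3 pigs as bars; the TNNI2 axis is logarithmic and shows means without bars. LW90 is the highest point in every panel, and in ACTN3 alone do the 3 S-L pigs (163 to 267) lie above the 3 S-H pigs (108 to 133).

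Together the members made up 6.17, 6.67 and 4.89% of the summed protein-coding FPKM in LW63, LW70 and LW119, and 7.0, 10.5 and 12.7% in LW82, LW88 and LW90. The groups did not overlap, with 5.91% ± 0.915 (SD, n = 3) in S-H and 10.1% ± 2.87 in S-L. The two-sided exact permutation test gave p = 0.10, the smallest p that 3 pigs against 3 can give. This comparison was not planned, and the list was chosen with earlier results of these data known, so it is a description only. The variants that follow use nearly the same values and are not separate support. Without TNNI2 the same shares were 5.82% ± 1.04 and 9.15% ± 2.14, again without overlap (exact p = 0.10). Counted against nuclear genes only, leaving the mitochondrial genome out of the sum, they were 6.42% ± 1.16 and 10.9% ± 2.97 (exact p = 0.10). The separation was narrow, since LW82 lay at 7.0% and LW70 at 6.67%. It also rested on the division, as the protein-coding sum was lowest in LW82 (254838 FPKM). Before division, the summed FPKM of the 7 records found by name overlapped, with 13783 to 20133 in S-H and 16349 to 33437 in S-L. The share of MYLPF alone overlapped too, with 2.73% ± 0.415 in S-H and 4.23% ± 1.10 in S-L (exact permutation p = 0.20).

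By mean level over the 6 pigs, on the per-length scale, MYLPF was the third of all tested genes, TNNC2 ranked 5, TNNT3 ranked 10, MYL1 ranked 13, TNNI2 ranked 19 and the fast myosin locus ranked 23. ATP2A1 ranked 100 and ACTN3 ranked 205. The rank of TNNI2 rests on LW88 and LW90, and in LW63, LW70 and LW82 the gene was listed at 30.6 to 53.5 FPKM. Across the 6 pigs the coefficient of variation (CV) of the FPKM was between 26.6% (MYL1) and 45.1% (ATP2A1) for 7 of the records, and it was 135% for TNNI2.

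Of the motor proteins, the fast myosin locus gave 1193, 1718 and 705 FPKM in LW63, LW70 and LW119 and 1483, 1318 and 2065 FPKM in LW82, LW88 and LW90. The groups overlapped, since LW70 exceeded LW82 and LW88. The log2 fold change was -0.49 ± 0.38 (SE), with an adjusted p = 0.709 in limma (Benjamini-Hochberg over all tested genes). It rested largely on LW119, and was -0.15 without that pig. With the values as deposited, before the conversion of their unit, the log2 fold change was -0.36.

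MYLPF, the phosphorylatable regulatory light chain of fast myosin, gave 8261, 10034 and 6701 FPKM in the S-H pigs and 7653, 13605 and 14386 FPKM in the S-L pigs. LW88 and LW90 were the highest, and LW82 lay between LW119 and LW63. Its log2 fold change was -0.48 ± 0.41 (limma, adjusted p = 0.734), and it was 0.00 with quantile normalization. MYL1, the essential light chain of fast myosin, gave 1529, 2289 and 2005 FPKM in S-H and 2580, 2088 and 3333 FPKM in S-L. Here LW82 was the second highest pig, and LW88 lay below LW70. The log2 fold change of MYL1 was -0.45 ± 0.33 (limma, adjusted p = 0.700).

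TNNT3, the fast troponin that anchors the complex to tropomyosin, gave 2734, 3278 and 1671 FPKM in the S-H pigs and 2561, 3811 and 4437 FPKM in the S-L pigs. The calcium sensor TNNC2 gave 3713, 4001 and 2267 FPKM in S-H and 3055, 5683 and 5859 FPKM in S-L. Both genes put the pigs in the order LW90, LW88, LW70, LW63, LW82, LW119, which was also that of MYLPF. Their log2 fold changes were -0.51 ± 0.38 (limma, adjusted p = 0.705) and -0.53 ± 0.40 (adjusted p = 0.707).

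The inhibitory subunit TNNI2 was the exception in size. Its 3 transcripts summed to 47.7, 53.5 and 720 FPKM in LW63, LW70 and LW119 and to 30.6, 4210 and 4451 FPKM in LW82, LW88 and LW90. The lowest and the highest pig, which differed 145-fold, were thus both S-L pigs. The log2 fold change was -2.76 ± 1.73 (limma, adjusted p = 0.661), and 2 of the 12841 tested genes had a larger SD within groups on the log2 scale than its 3.31. Without LW82 the log2 fold change was -5.14 and passed (limma, unadjusted p = 0.000767, adjusted p = 0.30), whereas without LW90 it was -1.55 (unadjusted p = 0.424).

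ACTN3, the alpha-actinin that crosslinks thin filaments at the Z-disc of fast fibres, was the single member whose groups did not overlap. It gave 126, 133 and 108 FPKM in the S-H pigs and 163, 230 and 267 FPKM in the S-L pigs, or 122 ± 13.2 and 220 ± 52.4 (SD, n = 3). Every S-H pig lay below every S-L pig, which was so for 1.70% of all tested genes. The log2 fold change was -0.82 ± 0.26 (limma, unadjusted p = 0.0111, adjusted p = 0.577) and passed neither threshold. It passed without LW82 (-1.02, unadjusted p = 0.00696, adjusted p = 0.461).

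ATP2A1, which encodes SERCA1, the pump that returns calcium to the sarcoplasmic reticulum of fast fibres, gave 223, 345 and 311 FPKM in S-H and 306, 348 and 703 FPKM in S-L. A single pig, LW90, stood above the other 5, and LW70 and LW88 were nearly level. The log2 fold change was -0.55 ± 0.35 (limma, adjusted p = 0.665), and it was -0.18 without LW90.

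Ratios of members within a library do not depend on the scaling between libraries, except that those of the fast myosin locus also hold the factor by which its values were converted in each pig. TNNT3 to TNNC2 lay between 0.671 and 0.838 in all 6 pigs (CV 8.06%), and MYLPF to TNNC2 lay between 2.23 and 2.96 (CV 9.71%). The levels of the same 3 genes each varied with a CV of at least 31.8%. The ratio to TNNC2 varied with a CV of 18.7% for ACTN3, 25.4% for the fast myosin locus, 33.2% for ATP2A1, 35.4% for MYL1 and 117% for TNNI2. None of these 7 ratios to TNNC2 separated the groups, and the smallest exact permutation p was 0.300, for ACTN3.

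The 8 transcripts of the fast myosin locus were then sorted by which of the IIa, IIx and IIb genes they span. RefSeq places MYH4 at 55190545 to 55216294, MYH1 at 55225581 to 55251495 and MYH2 at 55252974 to 55278820 of chromosome 12 (Sscrofa11.1), so that the 3 genes follow each other without overlap. The table gives the start and end of a transcript but no exons. One transcript lay over MYH4 alone, 3 lay over MYH2 alone (1 of them listed at 0 in all pigs), and none lay over MYH1 alone. The remaining 4 ran from MYH4 to MYH1 (1 transcript), from MYH1 to MYH2 (1) or from MYH4 to MYH2 (2), so IIx myosin could not be measured apart from its neighbours. The 3 genes also have near-identical stretches of coding sequence, and how reads were divided between them is uncertain.

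The transcript over MYH4 alone (ENSSSCT00000061472, 55190429 to 55216230) gave 493, 365 and 163 FPKM in LW63, LW70 and LW119 and 653, 632 and 928 FPKM in LW82, LW88 and LW90. Every S-H pig lay below every S-L pig, which was so for 3.31% of all tested transcripts. The log2 fold change was -1.24 ± 0.43 (limma over all transcripts, unadjusted p = 0.0243, adjusted p = 0.848) and did not pass, where 1.25% of transcripts did. As a share of the locus it took 41.3, 21.2 and 23.2% in the S-H pigs and 44.0, 47.9 and 45.0% in the S-L pigs. The shares of the 3 S-L pigs spread little (45.6% ± 2.04), and those of the S-H pigs spread more (28.6% ± 11.1), with LW63 close to LW82. The exact permutation test gave p = 0.10, or 0.375 after adjustment over the 5 position classes.

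The transcripts over MYH2 alone, the IIa myosin, gave 151, 557 and 44.7 FPKM in the S-H pigs and 94.1 ± 22.2 FPKM (SD, n = 3) in the S-L pigs. As shares of the locus these were 12.7, 32.4 and 6.34% in S-H and 7.99, 6.73 and 3.64% in S-L. LW70 stood apart with the highest share, and LW119 lay within the range of the S-L pigs (exact permutation p = 0.30). The ratio of MYH4 alone to MYH2 alone was 3.26, 0.655 and 3.65 in S-H and 5.51, 7.12 and 12.4 in S-L, without overlap (exact permutation p = 0.10). LW70 was thus the single pig in which the transcripts over MYH2 alone exceeded the transcript over MYH4 alone. This does not compare all IIa with all IIb myosin. The transcript from MYH4 to MYH1, with 476 FPKM in LW70, also spans MYH4 and is left out of the ratio.

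The transcript that runs from MYH4 to MYH1 (ENSSSCT00000019596) spans both genes. It gave 409, 476 and 398 FPKM in S-H and 524, 466 and 838 FPKM in S-L. Its share of the locus was 34.3, 27.7 and 56.5% in the S-H pigs and 35.3, 35.4 and 40.6% in the S-L pigs (exact permutation p = 1.0). LW119, which had a low MYH4-alone share, had the highest share here. The MYH1-to-MYH2 transcript (ENSSSCT00000064728) took between 9.25 and 13.7% of the locus in the 6 pigs (exact permutation p = 0.30), and the transcripts spanning all 3 genes took between 0.715 and 4.93% (exact permutation p = 0.30).

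**Figure D2:**
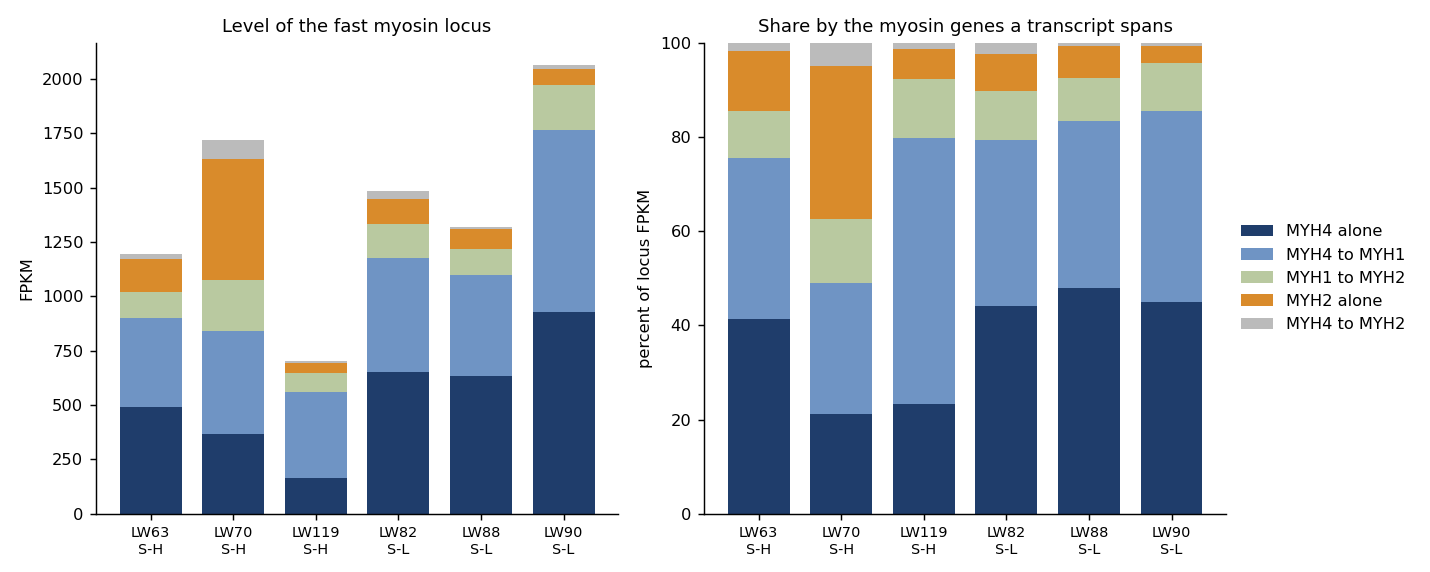
Left, FPKM of the fast myosin locus in each pig, stacked by the myosin genes that a transcript spans; right, the same as percent of the locus. The MYH4-alone share is 44.0 to 47.9% in the S-L pigs and 21.2 to 41.3% in the S-H pigs, and the MYH2-alone share is highest in LW70 (32.4%).

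Each fast gene was paired with a slow one, except that ACTN3 was paired with ACTN2, which is not limited to slow fibres. The fast share of a pair is taken within a library, again with the conversion factor in the share of the fast myosin locus. The mean fast share was lower in S-H in 8 of 8 pairs, with differences (S-H minus S-L) between -37.9 and -7.46 percentage points, but in every pair the groups overlapped. LW88 and LW90 were the 2 highest pigs in 8 of 8 pairs, and LW82 lay below the highest S-H pig in each. The exact permutation p was between 0.20 and 0.40 for the 8 pairs, and between 0.343 and 0.40 after adjustment over them.

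TNNC2 made up 49.7, 51.2 and 35.7% of TNNC2 + TNNC1 in the S-H pigs and 46.8, 71.9 and 69.2% in the S-L pigs. Fast and slow troponin C were thus near balance in LW63, LW70 and LW82, whereas LW119 held more of the slow and LW88 and LW90 more of the fast gene. For the calcium pumps, ATP2A1 made up 52.6, 63.5 and 70.5% of ATP2A1 + ATP2A2 in S-H and 61.6, 90.2 and 82.1% in S-L. The share of 90.2% in LW88 came with an ATP2A2 level of 37.7 FPKM, against 130 to 201 FPKM in the other 5 pigs. ACTN3 made up 64.2, 58.8 and 52.3% of the alpha-actinin pair with ACTN2 in S-H and 63, 73.9 and 72.7% in S-L.

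In the pairs of myosin subunits the fast gene was listed above the slow gene in every pig. The fast myosin locus made up 74.3, 81.2 and 70.1% of its sum with MYH7 in the S-H pigs and 78.3, 87.4 and 86.7% in the S-L pigs. MYLPF made up 64.5, 72.7 and 67.5% of its sum with MYL2 in S-H and 67.1, 84.6 and 84.1% in S-L, and MYL1 made up 63.8, 71.6 and 78.1% of its sum with MYL3 in S-H and 73.0, 79.1 and 84.2% in S-L. TNNT3 made up 82.6, 86.9 and 80.1% of its sum with TNNT1 in S-H and 86.6, 91.8 and 93.6% in S-L. In all of these LW82 lay below the highest S-H pig.

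TNNI2 and TNNI1 differed from the other pairs. The fast share was 9.22, 8.98 and 60.2% in LW63, LW70 and LW119 and 7.82, 92.7 and 91.4% in LW82, LW88 and LW90. In LW63, LW70 and LW82, where the other 7 fast genes made up 46.8 to 86.9% of their pairs, slow troponin I was thus listed far above fast troponin I.

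**Figure D3:**
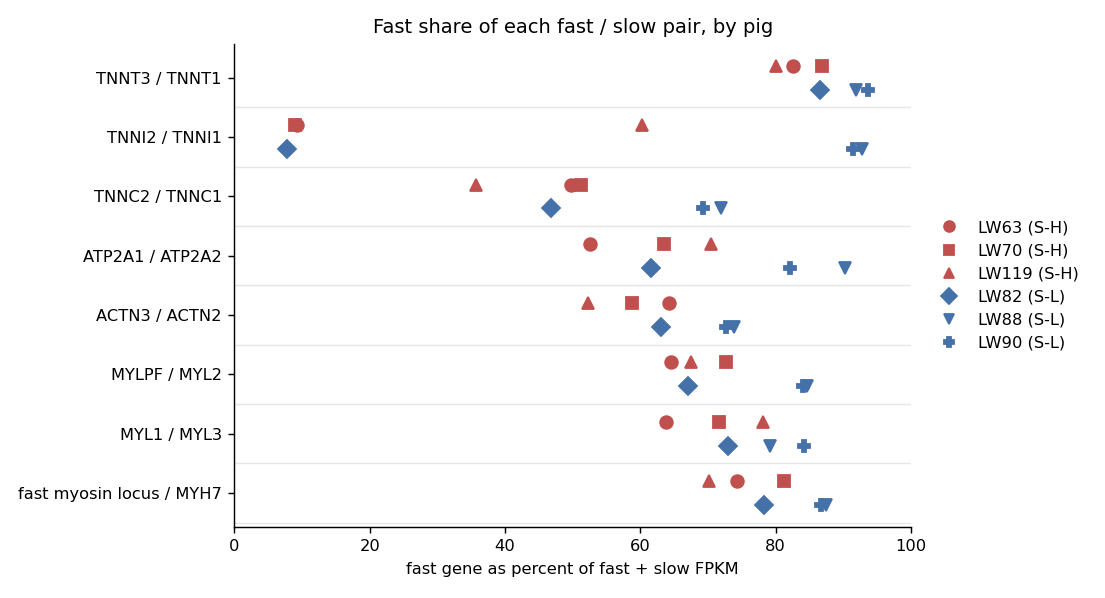
The fast gene as a percent of the summed FPKM of a fast and slow pair, for 8 pairs, with 1 point per pig (S-H red, S-L blue). LW88 and LW90 lie to the right in every pair, LW82 lies below the highest S-H pig, and TNNI2 / TNNI1 splits the pigs into 7.82 to 9.22% (LW63, LW70, LW82), 60.2% (LW119) and 91.4 to 92.7% (LW88, LW90).

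Of the 48 transcripts, 41 had a mean of at least 0.1 FPKM and were tested, and 26 of these had a log2 fold change below 0. The median log2 fold change over all tested transcripts was 0.14. Transcripts of the same gene share reads, so the 26 are not separate readings. Of the 41, only 2 passed, against 0.496% of all tested transcripts that passed and were lower in S-H, and both were minor forms. TNNT3-203 gave 11.1, 8.99 and 30.1 FPKM in S-H and 134, 252 and 43.4 FPKM in S-L (log2 fold change -2.97, limma, unadjusted p = 0.0053, adjusted p = 0.665), and it took at most 6.6% of TNNT3. It runs from 989931 to 1317600 of chromosome 2, far past RefSeq TNNT3 (1297826 to 1316865). Its span includes TNNI2 (1251566 to 1253883), so the reads behind TNNT3-203 are uncertain. An assembled transcript of MYL1 (chromosome 15, 113034279 to 113063234) gave 29.8, 44.7 and 11.6 FPKM in S-H and 66.7, 112 and 90 FPKM in S-L (log2 fold change -1.81, limma, unadjusted p = 0.00996, adjusted p = 0.784), and it took at most 5.35% of MYL1. Shares within a gene were tested for the 20 transcripts with a mean share of at least 10%. None of the 20 fell below an adjusted p of 0.667 in the exact permutation test. StringTie divides the reads that overlapping transcripts share by estimation, and these files do not show how firm that division is.

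Almost all TNNI2 FPKM came from 2 transcripts. TNNI2-203 (chromosome 2, 1252208 to 1253892) gave 0.828, 0.748 and 429 FPKM in LW63, LW70 and LW119 and 0.667, 4116 and 4378 FPKM in LW82, LW88 and LW90. The shorter TNNI2-201 (1252823 to 1253889) gave 46.5, 52.7 and 291 FPKM in S-H and 29.9, 94 and 73.3 FPKM in S-L. The difference between pigs was thus one of TNNI2-203, which made up 97.8 and 98.4% of the gene in LW88 and LW90, 59.6% in LW119 and 1.40 to 2.18% in the other 3 pigs.

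A further transcript covers the whole of TNNI2. It was assembled from the reads, runs from 1248077 to 1253893 of chromosome 2, and is assigned in the table to the neighbouring gene SYT8, a member of the synaptotagmin family. It gave 794, 1045 and 232 FPKM in LW63, LW70 and LW119 and 481, 90.5 and 264 FPKM in LW82, LW88 and LW90. It was thus high in the 3 pigs with almost no TNNI2-203 and lower in the other 3. When its FPKM was added to TNNI2, the sums were 841, 1099 and 952 FPKM in S-H and 512, 4300 and 4716 FPKM in S-L. The pigs then differed 9.21-fold instead of 145-fold, and the log2 fold change was -1.19 ± 0.72 (limma, adjusted p = 0.658). Reads over TNNI2 can be assigned to either record, so the level of TNNI2 in LW63, LW70 and LW82 is uncertain, as are the values of TNNI2 in each comparison above. This sum was chosen after the values had been seen.

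MYL1 is known to make 2 light chains, a long and a short one, from separate promoters of the same gene. A few of its transcripts carried most of the FPKM, and which of them led differed between pigs. MYL1-201 (chromosome 15, 113038180 to 113053659) led in LW63, LW70, LW82 and LW90, with 84.2, 80.0, 61.2 and 80.7% of the gene. It held 11.4% in LW119, where MYL1-205 (113038083 to 113063179) held 72.2%, and 36.1% in LW88, where MYL1-203 (113036191 to 113063231) held 42.7%. MYL1-205 also held 28.6% in LW82 and was at most 0.168% in each of the other 4 pigs.

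Grouped by the upper boundary of the transcripts, those reaching past the end of MYL1-201 took 7.16, 7.97 and 73.7% of MYL1 in the S-H pigs and 31.4, 48.1 and 9.01% in the S-L pigs. Their mean share was 29.6% ± 38.2 in S-H and 29.5% ± 19.6 in S-L (exact permutation p = 1.0). The share of these transcripts thus differed widely between pigs within each group. The 2 transcripts with a lower upper boundary than MYL1-201 took 1.82, 1.26 and 2.31% in S-H and 0.821, 1.23 and 0.663% in S-L, without overlap (exact permutation p = 0.10). The table does not give the strand of these transcripts, so the boundary is not called a promoter here.

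MYLPF was divided between MYLPF-204, with 84.6, 42.1 and 38.4% in S-H and 52.2, 80.2 and 41.8% in S-L, and MYLPF-201, with 6.58, 41.6 and 47.2% in S-H and 35.8, 9.65 and 45.6% in S-L. MYLPF-204 and MYLPF-201 start within 1 base of each other on chromosome 3, but MYLPF-204 ends at 18017343 and MYLPF-201 at 17940731. The 2 shares were near equal in LW70, LW119 and LW90 and unequal in LW63 and LW88, and the groups overlapped (exact permutation p = 0.90 for each).

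TNNT3 is known for extensive alternative splicing. TNNT3-204 (chromosome 2, 1299371 to 1316515) was its top transcript in 6 of 6 pigs, with 1639, 1543 and 963 FPKM in S-H and 1965, 2886 and 2921 FPKM in S-L. Its share was 59.9, 47.1 and 57.6% in the S-H pigs and 76.7, 75.7 and 65.8% in the S-L pigs, without overlap, in the exact permutation test with p = 0.10 (0.667 adjusted over the 20 transcripts). As given above, 2 of these 20 shares were without overlap. Its log2 fold change did not pass (-0.92, limma, unadjusted p = 0.0167, adjusted p = 0.848). The rest went to different transcripts in different pigs. TNNT3-207 held 23.6, 3.22 and 24.7% in S-H and 1.07, 0.114 and 28.1% in S-L. TNNT3-209 held 13.3, 0.702 and 10.7% in S-H and 15.3, 16.7 and 3.38% in S-L. TNNT3-205 held 37.6% in LW70 and at most 0.625% in each of the other 5 pigs.

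ACTN3-201 was the top transcript of ACTN3 in 5 pigs, and ACTN3-202 in LW90. ACTN3-201 gave 70.9, 58.1 and 103 FPKM in S-H and 73.7, 113 and 88.3 FPKM in S-L, so its groups overlapped (log2 fold change -0.26, limma, adjusted p = 0.879). The separation of the gene sums came from the other transcripts. ACTN3-202 gave 15.5, 34.4 and 3.13 FPKM in S-H and 31.2, 64.6 and 96.9 FPKM in S-L (log2 fold change -2.28, limma, unadjusted p = 0.0378, adjusted p = 0.848). ACTN3-203 was listed at 0, 19.5 and 0 FPKM in S-H and gave 30.3, 26.8 and 49.3 FPKM in S-L, without overlap. ACTN3-205 gave 40.0, 20.1 and 1.51 FPKM in S-H and 26.5, 25.4 and 32.4 FPKM in S-L. In LW119 these 3 together held little, and ACTN3-201 alone made up 95.7% of the gene.

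TNNC2 and ATP2A1 differed from the genes above in the steadiness of their forms. TNNC2-201 held between 64.9 and 67.6% of TNNC2 in the 6 pigs and TNNC2-202 the rest, although the level of the gene differed 2.58-fold between pigs. ATP2A1-204 held between 98.8 and 100% of ATP2A1. An assembled transcript antisense to ATP2A1 (chromosome 3, 18536933 to 18555733) gave 0.270, 3.48 and 2.78 FPKM in S-H and 0.947, 0.557 and 2.24 FPKM in S-L, low against the 223 to 703 FPKM of the gene. Libraries were made with strand information, per the study's methods.

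**Figure D4:**
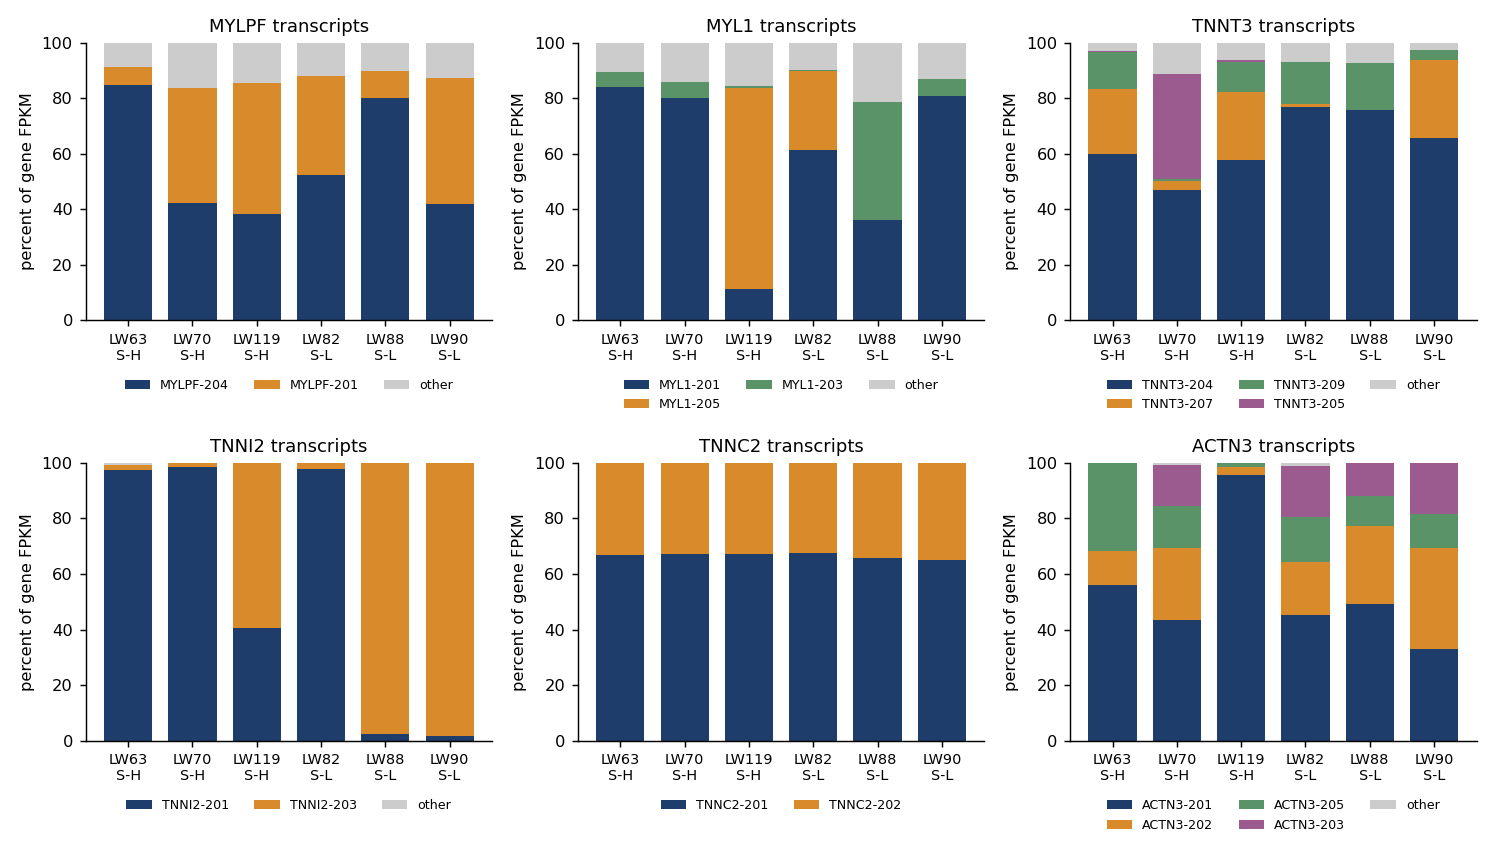
Percent of the FPKM of a gene in each of its main transcripts, by pig, for 6 fast-fibre genes; grey stands for all other transcripts. TNNC2 is divided alike in all pigs (64.9 to 67.6% TNNC2-201), whereas the top transcript differs between pigs in MYL1, MYLPF, TNNI2 and ACTN3.

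Among 21 tested genes of a list of other fast-fibre and calcium-release genes (RYR1 and TTN were not matched by name), 14 had a log2 fold change below 0 and 7 above, with a median of -0.14 beside 0.21 for all tested genes. One passed, lower in S-H. This was PVALB, parvalbumin, a calcium buffer of fast fibres, with 6.93, 0.268 and 2.05 FPKM in S-H and 15.8, 12.9 and 11.7 FPKM in S-L (log2 fold change -2.92, limma, unadjusted p = 0.00531, adjusted p = 0.548). The 3 of the highest level were MYOZ1, a Z-disc protein of fast fibres (1655 ± 592 FPKM in S-H and 1537 ± 531 in S-L), TPM1, the tropomyosin of fast fibres, which ranged from 958 to 2312 FPKM (log2 fold change -0.57, limma, adjusted p = 0.660), and ACTA1, skeletal alpha-actin, which ranged from 448 to 1731 FPKM (-0.97, unadjusted p = 0.024, adjusted p = 0.583). Besides PVALB, the groups did not overlap in CASQ1, the calcium store protein of fast fibres, and in NEB, nebulin, both named after their values were seen. These 3 of 21 stand beside 1.70% of all tested genes, and the 1 that passed beside 0.195%. CASQ1 gave 112, 126 and 81.5 FPKM in S-H and 166, 170 and 300 FPKM in S-L (log2 fold change -0.96, limma, unadjusted p = 0.0107, adjusted p = 0.577).

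Of 13 tested genes of the slow-fibre list, 11 had a log2 fold change above 0 and 2 below. Since 25.9% of all tested genes had a log2 fold change below 0, a value above 0 was the common case on this scale. None of the 13 slow-fibre genes passed in limma, while 2 had an unadjusted p below 0.05. Their median was 0.51, again beside 0.21 for all tested genes. In 5 of them (TNNT1, TNNI1, TNNC1, MYOZ2 and TPM3, the last 2 named after their values were seen) every S-H pig lay above every S-L pig, which was so for 13.1% of all tested genes. TNNC1 gave 3759, 3812 and 4077 FPKM in S-H and 3477, 2225 and 2602 FPKM in S-L (log2 fold change 0.51, limma, adjusted p = 0.662). The groups overlapped in MYL2 (2481 to 4553 FPKM), in MYL3 (551 to 955 FPKM) and in MYH7, the slow myosin heavy chain (190 to 413 FPKM). ACTN2 ranged from 70.4 to 100 FPKM, and its log2 fold change was -0.09, beside -0.82 for ACTN3. A list of developmental and other myosins had 5 tested genes (MYH3, MYH8, MYH13, MYL5 and MYH14, the last a non-muscle myosin). None of these 5 passed, and 0 of them had an unadjusted p below 0.05. Their sum was between 21.0 and 52.7 FPKM in the 6 pigs.

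**Figure D5:**
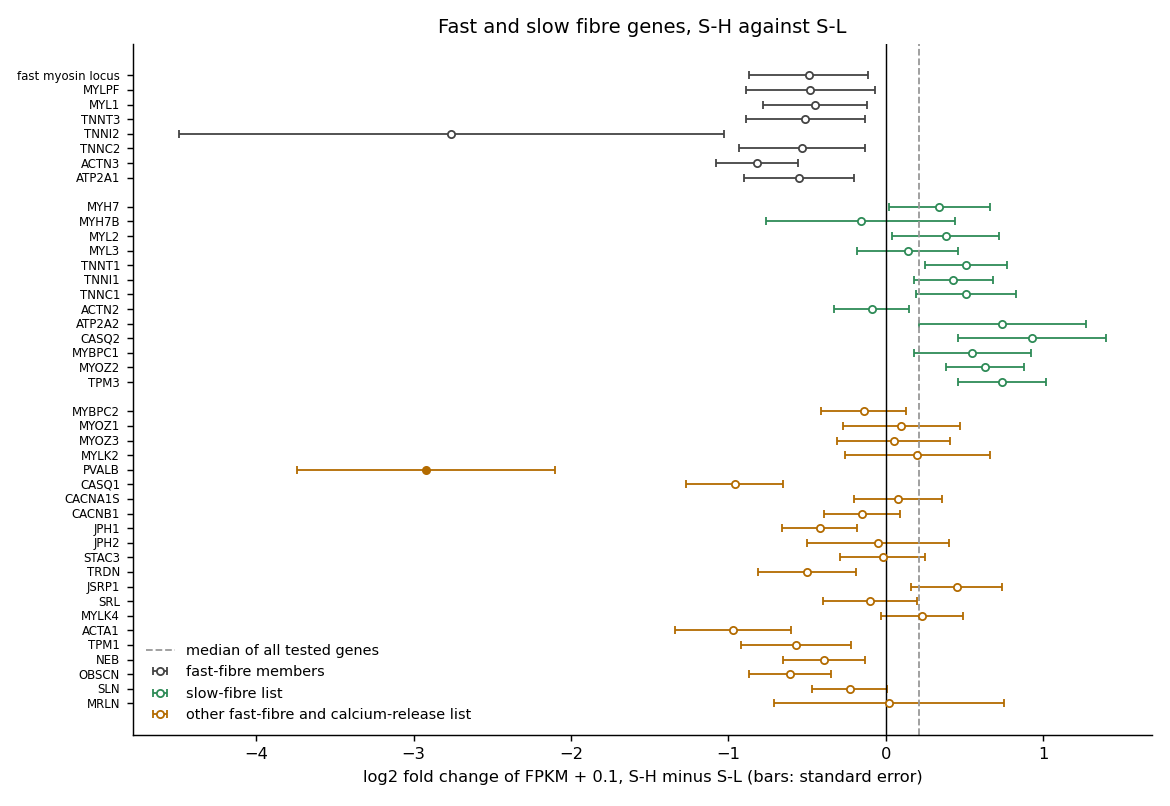
Log2 fold change of FPKM + 0.1 (S-H minus S-L, points) with its standard error (bars) for the 8 fast-fibre records, the slow-fibre list and the other fast-fibre and calcium-release list; filled points passed, and the dashed line is the median of all tested genes (0.21). The 8 members lie below 0 and 11 of 13 slow-fibre genes lie above it, where 25.9% of all tested genes lie below 0. PVALB alone is filled.

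Of 29 tested regulators of fibre type, 20 had a log2 fold change below 0, with a median of -0.23. One passed, PPARGC1A, a coactivator of mitochondrial and slow-fibre genes, which was lower in S-H with 10, 22.4 and 15.1 FPKM against 25.5, 76.0 and 43.7 FPKM (log2 fold change -1.54, limma, unadjusted p = 0.00407, adjusted p = 0.533). In 4 more (NFATC1, NFATC2, VGLL2 and FNIP1, named after their values were seen) every S-H pig lay below every S-L pig, which makes 5 of 29 with PPARGC1A. Over all tested genes 1.70% lay so, and 0.195% passed and were lower. VGLL2, a cofactor of TEAD factors in skeletal muscle, gave 10, 6.58 and 5.90 FPKM in S-H and 18.1, 13.2 and 12 FPKM in S-L (log2 fold change -0.95, limma, unadjusted p = 0.0074, adjusted p = 0.573).

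Of the marker lists of other cell types, that of adipocytes alone held genes that passed. All 10 tested adipocyte markers had a log2 fold change above 0, where 25.9% of all tested genes lay below 0. Of the 10, 5 passed (ADIPOQ, PLIN1, FABP4, LEP and CIDEC), beside 1.17% of all tested genes that passed and were higher. In 6 of the 10 every S-H pig lay above every S-L pig, beside 13.1% of all tested genes. The groups overlapped in PLIN4, LPL, GPD1 and PNPLA2, and LPL was level (log2 fold change 0.02). The adipocyte markers summed to 643 to 1635 FPKM in S-H and 454 to 574 FPKM in S-L, while ADRB3 stayed below the minimum mean. Within S-H the adipocyte sum was highest in LW63 (1635) and lowest in LW119 (643). Among the 8 fast-fibre records, LW63 was the lowest pig in 2 and among the 2 lowest in 5, and LW119 was the lowest in 5 and among the 2 lowest in 6. Sums of fibroblast markers (341 to 727 in S-H and 367 to 570 in S-L), endothelial markers (93.6 to 117 and 71.9 to 101) and smooth muscle markers (94.4 to 133 and 91.1 to 102) overlapped. Macrophage and lymphocyte markers summed to 136 to 181 and 104 to 116 without overlap, but most of that sum was CD79A (116, 126 and 145 FPKM in S-H and 88.9, 100 and 89.4 FPKM in S-L), and the groups overlapped in each of the other 5 markers. None of these 4 lists held a gene that passed in limma or one with an unadjusted p below 0.05. General fibre markers were present in every pig, with 1985 to 3939 FPKM of CKM, muscle creatine kinase, and 0 of 8 passed, 1 of which (ACTA1) had an unadjusted p below 0.05. The part of the cell mixture in the levels of the fast-fibre genes was not tested.

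The genes outside the list whose log2 level followed the mean of the 8 records most closely over the 6 pigs, among 9784 genes with a symbol and a mean of at least 1 FPKM, were SLC19A2 (Pearson r = 0.975), PITX3 (0.970), TMEM238 (0.960), HEY1 (0.958) and CISH (0.955). SLC19A2, a thiamine transporter, gave 8.18, 11.9 and 16.3 FPKM in S-H and 8.56, 43.5 and 52.1 FPKM in S-L. This mean is weighted by the wide range of TNNI2, and without TNNI2 the closest were TBX3 (0.973), BDH1 (0.964), PIK3R3 (0.961), ZNF219 (0.959) and MME (0.957). Closest to the MYH4-alone transcript were P2RY1 (0.996), CSF3 (0.98), LCLAT1 (0.98), CHRNA9 (0.98) and VSIG1 (0.940). P2RY1, a purine receptor, gave 14.6, 13.1 and 8.49 FPKM in S-H and 16.3, 16.5 and 20.8 FPKM in S-L. With 6 points that share library and scaling, high values of r are common among so many genes, and these are given as a description only.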

How the data were processed

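LD muscle RNA of 3 S-H and 3 S-L pigs was sequenced, 1 library per pig. According to the labels and the methods of the study, the authors removed ribosomal RNA, built libraries that keep strand information, aligned filtered reads with HISAT2 to Sscrofa11.1, and assembled and quantified transcripts with StringTie (versions not given in the sources used here). The deposited values are FPKM per transcript computed by the authors. From the values, 21107 Ensembl transcripts without a symbol, including those of the fast myosin locus, were taken to be in TPM. The labels name FPKM for all values, and this reading of the unit was not checked against another source. These transcripts were multiplied by 1 factor per pig (0.638 in LW119 to 0.847 in LW82), computed so that all values of a pig are on 1 scale. The levels, ranks and pair shares of the fast myosin locus rest on this reading. The study gives reads per library, but the files used here hold no read counts, so the counts behind single values are unknown and counting intervals are not given. Summed FPKM was 638440 to 846638 per library and lowest in LW119. No scaling between libraries was added.

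FPKM was summed per gene. Protein-coding type came from RefSeq by symbol or by reciprocal overlap of at least 50%. The fast myosin locus missed that overlap, being longer than each of its 3 genes, and was added because it contains them. Of 17220 protein-coding genes, 12841 with a mean of at least 0.1 FPKM entered limma 3.58.1 (R 4.3.3, variance trend) as log2(FPKM + 0.1), and likewise 40336 transcripts. A fold change is on that scale. With 0 genes below an adjusted p of 0.05 (lowest 0.0779) and 1049 below an unadjusted p of 0.05, calls used the thresholds of the study (unadjusted p below 0.01, absolute log2 fold change of at least 1), which 175 genes passed. The authors tested counts with edgeR. In the transcript fit 34 transcripts had an adjusted p below 0.05. Shares and ratios were compared by two-sided exact permutation tests over pigs (smallest p 0.10) in Python 3.11.15 with scipy 1.17.1. The fit was tested on simulated data.

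The members and lists were chosen with earlier results of these data known. Named genes were all members, list genes that passed, the 3 most abundant genes and pair partners of the fast and slow lists, the 5 genes most like the members and the 5 most like MYH4, and member transcripts with a mean share of at least 10%. Other names and the ratios between members were added after values were seen. The share of the members in the protein-coding sum was not among the planned results. Separate shares of MYH1, MYH2 and MYH4, planned at first, were replaced by position classes. Alternatives changed the pseudocount, minimum, scaling, variance model, gene summary, gene set and pigs. Gene positions and names came from RefSeq on the same assembly. Pigs are separate animals, and the p values measure the spread between them.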

Additional observations from a re-analysis of the deposited data

How the results depend on the processing

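In 454 recomputed values of 45 results, 427 kept their direction and their side of the threshold (or stayed within the spread between replicates), 0 lost a call, 3 gained one, 7 moved and 17 reversed. No member or share had a call in the main setting, so none of them could lose one. The exact permutation p of a share cannot fall below 0.10, so a share could not gain one either. These counts are thus no measure of how firm the results on members and shares are. The 175 genes that passed became 78 with a pseudocount of 1 and ranged from 88 (without LW90) to 263 (without LW82) when 1 pig was left out, against 251 without LW70. Their split into 150 higher and 25 lower in S-H depended on the scaling between libraries, with 243 and 15 in TPM, 85 and 56 with median-ratio size factors, and 70 and 63 with quantile normalization. Under these scalings the median over all tested genes was 0.35, 0.01 and -0.01 (log2), beside -0.39, -0.74 and -0.62 for the members. Fast-fibre members that passed numbered 1 (ACTN3, -1.05) with quantile normalization and 0 to 2 when 1 pig was left out, 2 being reached without LW82 (ACTN3 and TNNI2). MYLPF was at 0.00 with quantile normalization, which sets the top ranks of all libraries to the same value. All other members kept a log2 fold change below 0 in each alternative. Transcripts that passed fell from 503 to 227 with a pseudocount of 1 and to 181 with a minimum mean of 1 FPKM, where 16473 transcripts were tested, and ranged from 588 to 722 when 1 pig was left out. The difference in the MYH4-to-MYH1 share (2.39 points) was -2.16 with all sarcomeric myosins as the denominator and -6.10 to 8.28 when 1 pig was left out, the latter also for ENSSSCT00000019596. When 1 pig was left out, differences in transcript share also ran from -4.89 to 10.2 points for ACTN3-205, -13.6 to 22.8 for MYL1-201, -9.57 to 26.5 for MYL1-205, -20.4 to 0.853 for MYL1-203, -17.8 to 8.02 for MYLPF-204, -8.95 to 14.0 for MYLPF-201 and -7.74 to 0.237 for TNNT3-209. The cause of these changes was not tested. No paired analysis was possible because the pigs are different animals whose numbers are shared by no 2 groups. Precision is limited by 3 pigs per group and by read counts per gene that were not used here.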
